A study of Homo sapiens with 47 samples.

Results

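MALAT1, NEAT1, KCNQ1OT1, NORAD, GAS5 and SNHG1, long noncoding RNAs (lncRNAs) that many human cells make in quantity, were followed through single circulating tumor cells (CTCs) and cultured cells of the breast cancer line MDA-MB-231-LM2. The genes were named as a list, with levels from these data already known, so their levels are given as a description. They are 6 of the 25739 genes with a value, of which 4948 are annotated as lncRNA. LM2 is a lung-metastatic derivative of the triple-negative line MDA-MB-231. LM2 cells carrying GFP were implanted in a mammary fat pad of NSG mice aged 6 to 8 weeks, which lack functional T, B and NK cells, and blood was drawn from the heart once the primary tumors were large. CTCs were enriched by size in a microfluidic cassette, stained for CD45 to mark leukocytes, and picked singly by their GFP signal. The cultured LM2 cells were grown in DMEM with 10% FBS and picked into the same SMARTseq2 workflow, so both groups are cells of the same line, and the labels name no treatment. Values were available for 37 CTCs, of which 2 came from mouse 5541, 4 from mouse 5542, 10 from mouse 5545, 17 from mouse 5546 and 4 from mouse 5549, and for 6 cultured cells, which count as 1 culture. The labels set no batches apart. The paper states that the number of amplification cycles was chosen per set of cells, and these sets are not named. The CTCs thus come from 1 human line in immunodeficient mice, with few picked cells per mouse.

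MALAT1, NEAT1 and KCNQ1OT1 stay in the nucleus. MALAT1 sits in nuclear speckles, which store splicing factors, NEAT1 is the scaffold of paraspeckles, and KCNQ1OT1 is an imprinted RNA that silences neighboring genes on the chromosome it is made from. NORAD, GAS5 and SNHG1 are found mostly in the cytoplasm. NORAD binds PUMILIO proteins, which otherwise shorten the life of their target mRNAs, whereas GAS5 and SNHG1 are spliced host genes whose introns give small nucleolar RNAs (snoRNAs) and whose leftover spliced RNA is degraded quickly through nonsense-mediated decay when translation runs.

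The libraries were primed with oligo-dT, so the 3′ end of each RNA bears on what can be captured. The last 80 bases of the RefSeq transcripts of 5 of the 6 genes on GRCh38, and of the short NEAT1 transcript in GENCODE, are shown 5′ to 3′ for this reason. Capitals mark the polyadenylation signal AATAAA where it lies within 40 bases of the end or, where it does not, the longest run of A.
MALAT1 (chr11:65506437-65506516, plus strand): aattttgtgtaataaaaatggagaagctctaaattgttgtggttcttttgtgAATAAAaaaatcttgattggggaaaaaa
NEAT1 short transcript (chr11:65426434-65426513, plus strand): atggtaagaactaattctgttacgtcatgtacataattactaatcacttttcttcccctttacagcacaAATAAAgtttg
NEAT1 long transcript (chr11:65445461-65445540, plus strand): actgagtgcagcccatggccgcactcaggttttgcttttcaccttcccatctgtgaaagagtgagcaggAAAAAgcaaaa
KCNQ1OT1 (chr11:2608328-2608407, minus strand): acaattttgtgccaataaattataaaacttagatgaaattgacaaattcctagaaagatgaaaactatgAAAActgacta
NORAD (chr20:36045618-36045697, minus strand): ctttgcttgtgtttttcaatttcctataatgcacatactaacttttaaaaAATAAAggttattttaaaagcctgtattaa
SNHG1 (chr11:62851978-62852057, minus strand): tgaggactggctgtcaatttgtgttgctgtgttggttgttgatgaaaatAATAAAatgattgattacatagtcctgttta
MALAT1, NORAD, SNHG1 and the short NEAT1 transcript, which was chosen for having the signal, hold AATAAA between 5 and 25 bases from the end. KCNQ1OT1 holds it only 61 bases from the end, and the long NEAT1 transcript does not hold it in this window. Their longest runs of A are 4 and 5 bases. A match is a description of these letters and does not show that the site is used or that the RNA carries a poly(A) tail. The RefSeq ends shown for MALAT1 and KCNQ1OT1 differ from the GENCODE gene ends given below.

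The 6 genes lie on 3 chromosomes of GRCh38. MALAT1 occupies chr11:65497640-65508073 on the plus strand and NEAT1 chr11:65422774-65445540, also on the plus strand and next to it. KCNQ1OT1 occupies chr11:2597308-2700003 on the minus strand, inside the protein-coding gene KCNQ1, which runs on the other strand. NORAD occupies chr20:36045618-36051018, GAS5 chr1:173858559-173868882 and SNHG1 chr11:62851978-62855953, all on the minus strand. In GENCODE release 44 the longest transcripts of MALAT1, NEAT1, KCNQ1OT1 and NORAD have 1 exon, and the annotated exons span 10434, 22767, 92625 and 5401 bases. The exons of GAS5, joined over all its transcripts, span 4932 bases. Those of SNHG1 span 3976 bases, the whole length of its gene, so the introns of its spliced RNA are included. Reads were counted without strand. Reads of MALAT1 and its antisense transcript TALAM1, of KCNQ1OT1 and KCNQ1, and of GAS5 and GAS5-AS1 cannot be told apart where their exons overlap. SNHG1 contains 7 annotated snoRNA genes, while NORAD overlaps no other gene.

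The letters TGTANATA, which PUMILIO proteins recognize, were counted in each transcript because NORAD is known for them. Only the transcript strand was searched, and the motif overlaps no other motif used here. NORAD holds 15 matches in 5401 bases, or 2.78 per kb. NEAT1 holds 6 (0.264 per kb), KCNQ1OT1 9 (0.0982 per kb) and SNHG1 1 (0.265 per kb), and MALAT1 and GAS5 hold none. Of 8926 lncRNA transcripts of at least 1 kb, 19.4% hold any match and 9 (0.101%) reach the density of NORAD. The stretch below is shown because it holds 2 of the matches, in capitals.
NORAD, stretch with 2 matches (chr20:36049713-36049832, minus strand): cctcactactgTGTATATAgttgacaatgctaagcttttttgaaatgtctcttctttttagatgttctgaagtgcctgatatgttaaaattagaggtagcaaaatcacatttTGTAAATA

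The depth behind the values was 469614 to 2041333 reads on genes per CTC and 776949 to 1186197 per cultured cell. Values are reads divided by the size factor of each cell, called normalized values here, and carry no correction for gene length. With this scaling the median gene had a lower mean in CTCs than in culture. Over the 9164 genes with a mean of at least 8 in either group, the median log2 ratio of CTCs to culture was -1.20, and over the 307 lncRNAs among them it was -0.23. Scaling to CPM, the recovered reads of a gene as a share of all reads of the cell, moved the median of all genes to -0.45. Each lncRNA is therefore also given relative to the median of all genes. CTCs had 2227 to 11010 genes detected and cultured cells 7226 to 12271. Mitochondrial genes took 4.28% to 23.9% of the reads of CTCs and 4.05% to 5.74% of those of cultured cells.

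Erythroid markers were higher in CTCs than in culture. The summed leukocyte markers were lower in CTCs at the median, but single leukocyte markers went both ways. The 6 measured erythroid markers summed to 0 in all cultured cells and to 0 to 15571 in CTCs, with a median of 1289, and HBB, a globin chain, was detected in 35 of 37 CTCs. The sum of 9 measured leukocyte markers was 45.3 to 2486 in CTCs (median 414) and 213 to 1878 in culture (median 1025). Of the 6 with a mean of at least 8 in either group, 3 had a log2 ratio below 0 and the rest above 0. SRGN at -1.40, LAPTM5 at -1.23 and CD74 at -0.05 were below, with means of 397, 277 and 242 in culture. CORO1A at 4.42, TYROBP at 3.44 and LYZ at 2.18 were above. TYROBP was detected in 21 CTCs and FCER1G in 18, both at 0 in culture, and CORO1A in 17 CTCs and 1 cultured cell. PTPRC, which encodes CD45, was detected in 11 CTCs and at 0 in culture. The 7 platelet markers summed to at most 77.3 in any CTC, with a median of 0. The line's own markers were present, with VIM, LGALS1 and CAV1 detected in all 37 CTCs and all 6 cultured cells. Across CTCs the summed erythroid value had a Spearman rho of 0.27 with MALAT1 over the 37 CTCs. The part of these markers in the results below was not tested. The blood came from mice and reads were placed on the human genome only. The species of the reads, for these markers and for the 6 lncRNAs, was not tested.

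A pair of CTCs stood apart before any comparison. CTC 5545-6 had 1 read of MALAT1, a normalized value of 0.587, while NEAT1, KCNQ1OT1, NORAD and SNHG1 were at 0 and GAS5 was at 25.2. It also had the fewest genes of all CTCs, 2227, from 1049915 reads. CTC 5546-s5 had 15 reads of MALAT1, a normalized value of 12.3, and a NEAT1 value of 1.64, but its NORAD value of 41.0 and GAS5 value of 147 lay within the range of the other CTCs. Of 10 tumor cell markers, 5545-6 had 9 detected and 5546-s5 had 10, with VIM at 7276 and 16705. In 5545-6, CD44 was at 4.69 and KRT18 at 309.8, against CTC medians of 337 and 884. PTPRC was at 0 in both. The leukocyte markers summed to 675 in 5545-6 and 592 in 5546-s5, against medians of 414 in CTCs and 1025 in culture. The erythroid markers summed to 0.587 in 5545-6 and 3062 in 5546-s5, against a median of 1289. The third lowest CTC had a MALAT1 value of 1236, so these CTCs were separated from the rest by a wide gap. Results are given with them, and without them where that matters.

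MALAT1 was the most abundant of the 6 and the only one with a higher mean in the CTCs of every mouse than in culture. The cultured cells had MALAT1 values of 2532, 274, 2164, 916, 2462 and 1796. The CTCs of mouse 5541 had 1951 and 6548, those of mouse 5542 had 5729, 4464, 16966 and 7505, and those of mouse 5549 had 7359, 3644, 1639 and 21799. In mouse 5545 the lowest, median and highest values were 0.587, 4027 and 11700.2, and in mouse 5546 they were 12.3, 7304 and 18099.6. Thus 29 of 37 CTCs lay above every cultured cell, 6 within the cultured range and 2, the pair described above, below it. At least 29 CTCs lay above every cultured cell for 11 of 9164 genes (0.12%).

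The mean over mice was 6795 ± 2179 (SD, n = 5 mice) for MALAT1 against 1691 ± 911 (SD over 6 cells) in culture, a 4.02-fold difference. The log2 ratio was 2.01 and ranged from 1.33 in mouse 5541 to 2.36 in mouse 5542. Relative to the median of all genes it was 3.21, and 3.14 with CPM. By mean, MALAT1 ranked 8th of all genes in CTCs and 107th in culture. Its share of all reads had a median of 0.647% over CTCs, with a maximum of 2.84%, and of 0.142% over cultured cells. Its share of lncRNA reads had a median of 50.03% over CTCs and 15.6% over cultured cells. Without CTCs 5545-6 and 5546-s5 the log2 ratio was 2.05.

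**Figure D1:**
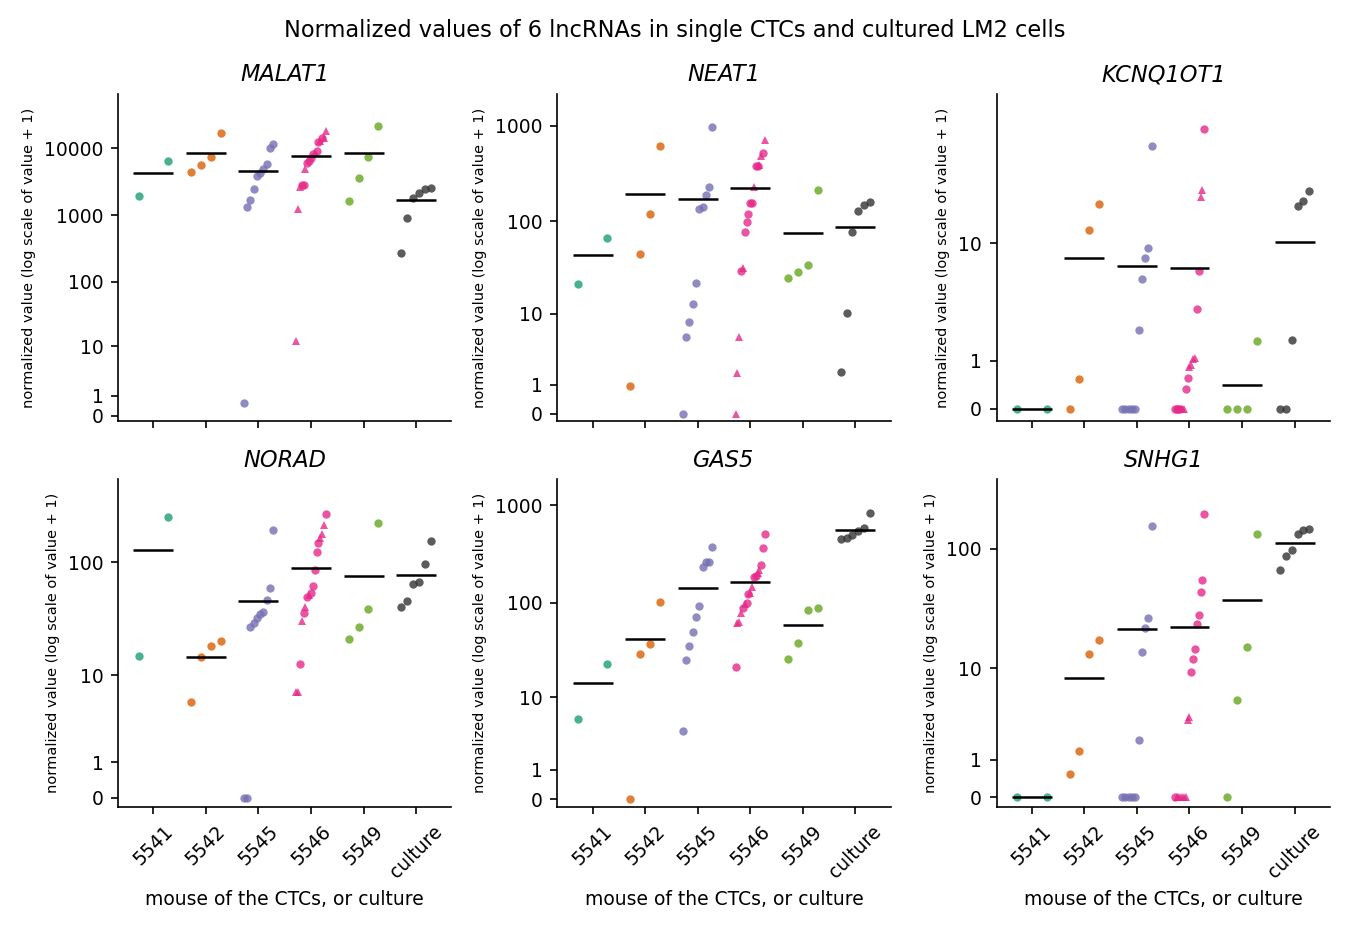
Normalized values of the 6 lncRNAs (vertical axes, log scale of value + 1) in each CTC by mouse and in each cultured LM2 cell (horizontal axis). Points are cells, triangles are libraries of mouse 5546 with an s in their names, and black lines are means. For MALAT1, 29 of 37 CTCs sit above every cultured cell, and for GAS5 36 of 37 sit below every cultured cell.

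NEAT1 varied more among CTCs than between the groups. The cultured cells had NEAT1 values of 77.6, 1.72, 10.0, 127, 159 and 148. The CTCs of mouse 5541 had 66.9 and 21.1, those of mouse 5542 had 120, 0.922, 605 and 44.9, and those of mouse 5549 had 28.8, 24.7, 33.9 and 215. Mouse 5545 ran from 0 through a median of 78.6 to 966, and mouse 5546 from 0 through 154 to 706. Of 37 CTCs, 12 lay above every cultured cell, 21 within their range and 4 below it. With CPM, 18 lay above and 2 below, and the share of all genes with such counts was not computed. The mean was 141 ± 76.6 (SD, n = 5 mice) against 87.3 ± 69.1 (SD over 6 cells) in culture, a difference smaller than the spread in either group. The log2 ratio was 0.68, above 0 in 3 of 5 mice, and 1.88 relative to the median of all genes. It turned to -0.39 when medians over cells replaced means.

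KCNQ1OT1 was near the limit of detection. It had a read in 20 of 37 CTCs (54.1%, exact 95% binomial interval 36.9% to 70.5%) and in 4 of 6 cultured cells, and in 12 CTCs after each cell was thinned to 469614 reads. The interval covers counting error only, since PCR copies cannot be told from separate molecules here and CTCs of a mouse are not independent. The cultured cells had values of 17.9, 1.72, 0, 0, 22.6 and 19.4. All CTCs of mouse 5541 and 3 of 4 of mouse 5549 were at 0, while mouse 5542 had 18.6, 0, 12.3 and 0.540. The highest CTCs were 5546-c10 at 56.5, from 108 reads, and 5545-11 at 44.1, from 55 reads, both above every cultured cell. The mean was 4.38 ± 3.83 (SD, n = 5 mice) against 10.3 ± 10.7 (SD over 6 cells) in culture, within the spread of the cultured cells. Its log2 ratio of -1.07 lay 0.14 above the median of all genes, and with CPM 3 of 5 mice were above culture, so no direction is given.

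NORAD, the PUMILIO-binding RNA, overlapped between the groups. The cultured cells had NORAD values of 153, 67.2, 46.4, 41.0, 97.3 and 64.6. Mouse 5541 had 241 and 15.1, mouse 5542 had 14.9, 18.4, 5.47 and 20.5, and mouse 5549 had 21.4, 27.5, 39.0 and 216. Mouse 5545 ran from 0 through a median of 34.2 to 189.9, and mouse 5546 from 6.86 through 53.8 to 260.4. Of 37 CTCs, 21 lay below every cultured cell, 9 within and 7 above, so that CTCs spread to both sides of the culture. With CPM, 14 lay below and 10 above. The share of all genes with such counts was not computed, and the median gene was lower in CTCs with both scalings. The mean was 70.8 ± 43.0 (SD, n = 5 mice) against 78.3 ± 41.7 (SD over 6 cells). The log2 ratio was -0.14 with the deposited scaling and 0.67 with CPM, which turned its sign, and 1.06 above the median of all genes.

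GAS5 was lower in the CTCs of every mouse than in culture. The cultured cells had GAS5 values of 543, 459, 447, 833, 499 and 578. Mouse 5541 had 5.63 and 22.9, mouse 5542 had 37.2, 29.1, 102 and 0, and mouse 5549 had 88.4, 25.8, 38.5 and 84.9. Mouse 5545 ran from 4.02 through a median of 81.8 to 375, and mouse 5546 from 21.2 through 126 to 502. Only CTC 5546-c10, the highest in mouse 5546, reached the cultured range, and the other 36 lay below every cultured cell. At least 36 CTCs lay below every cultured cell for 124 of 9164 genes (1.35%).

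The mean of GAS5 was 84.3 ± 65.2 (SD, n = 5 mice) against 559.6 ± 143 (SD over 6 cells) in culture, 6.57-fold lower. The log2 ratio was -2.72, from -5.20 in mouse 5541 to -1.75 in mouse 5546, and -1.51 relative to the median of all genes. With CPM it was -2.04, or -1.60 relative to that median, and 34 of 37 CTCs lay below every cultured cell. The share of all genes with such a count was not computed for CPM. A read of GAS5 was found in 36 of 37 CTCs, so few CTCs lacked it altogether.

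SNHG1 was also lower in the CTCs of every mouse, and many CTCs had no read of it. The cultured cells had SNHG1 values of 87.5, 98.3, 66.5, 131, 142 and 145. Both CTCs of mouse 5541 were at 0, mouse 5542 had 17.5, 13.4, 1.37 and 0.540, and mouse 5549 had 15.4, 5.05, 0 and 132. In mouse 5545 the median was 0.942 and the highest 154, and in mouse 5546 the median was 3.43 and the highest 191. Thus 34 of 37 CTCs lay below every cultured cell, as at least that many did for 357 of 9164 genes (3.9%), and CTCs 5545-7 and 5546-c10 lay above all of them. A read was found in 22 of 37 CTCs (59.5%, exact 95% binomial interval 42.1% to 75.2%), in 21 after thinning, and in all 6 cultured cells.

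The mean of SNHG1 was 18.2 ± 14.6 (SD, n = 5 mice) against 112 ± 32.4 (SD over 6 cells) in culture, 5.89-fold lower. The log2 ratio was -2.56, or -1.36 relative to the median of all genes, and -1.91 with CPM. The ratio of mouse 5541 depends on the 1 added to each mean, because its CTCs were at 0. Among the 17 CTCs of mouse 5546, 8 of the 9 libraries with the letter c in their names had a read of SNHG1, with a mean of 42.1 (23.5 without CTC 5546-c10), against 2 of the 8 with the letter s, with a mean of 0.827. The c libraries had 7438 to 11010 genes detected and the s libraries 4225 to 6942, and the part of this in the split was not tested. What the letters stand for was not stated. For MALAT1 the means were 7751 in the c libraries and 7889 in the s libraries.

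**Figure D2:**
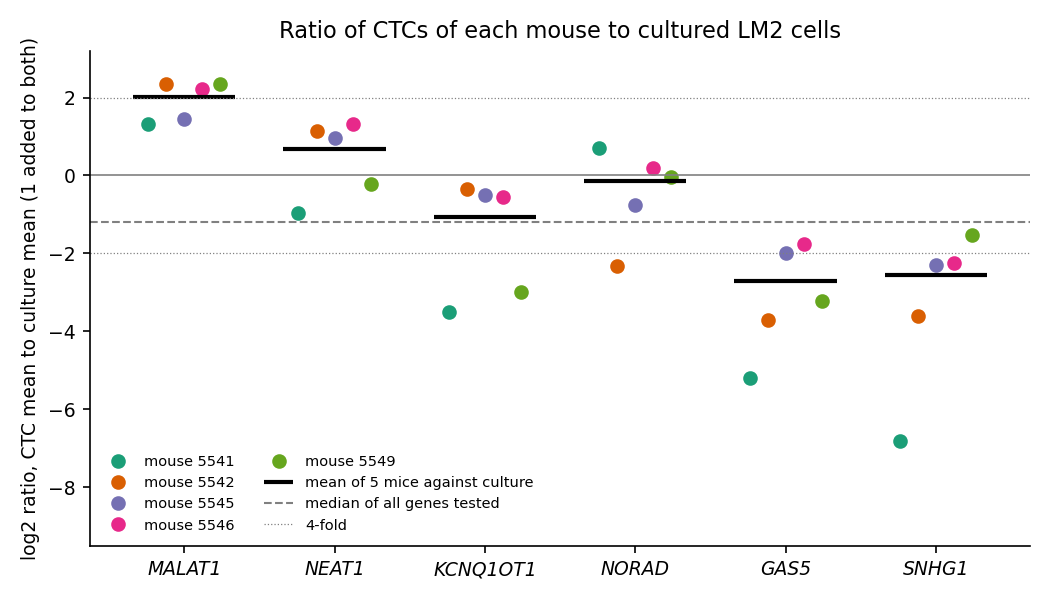
Log2 ratio of the mean of each mouse's CTCs to the mean of the 6 cultured LM2 cells, with 1 added to both means (vertical axis), for the 6 lncRNAs (horizontal axis). Colored points are mice, short black lines are the mean of the 5 mice against culture, the dashed line is the median of all genes tested at -1.20 and the dotted lines mark a 4-fold difference. The 5 mice lie above 0 for MALAT1 and below 0 for GAS5 and SNHG1, and the points of mouse 5541 for KCNQ1OT1 and SNHG1 stand for values of 0.

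Because the culture is 1 sample with no replicate of its own, a rule of size was used, in which the mean of each of the 5 mice had to lie at least 4-fold from the culture in 1 direction. None of the 6 lncRNAs met it. Over all genes tested, 6 of 9164 (0.0655%) met it as higher in CTCs and 487 (5.31%) as lower. At 2-fold, MALAT1 met the rule as higher, as did 24 genes in all (0.262%), and GAS5 and SNHG1 met it as lower, as did 2298 genes (25.1%). With CPM, MALAT1 still met the 2-fold rule as higher, as did 61 of 8777 genes (0.695%), and GAS5 and SNHG1 did not meet it as lower, which 765 genes (8.72%) did. As an alternative, reads were summed over the cells of each mouse and over the culture and compared by the quasi-likelihood test of edgeR, with the spread taken from the mice alone. It called none of 13813 genes in either direction (0.0%), with 252 at an unadjusted p under 0.05. DESeq2 called 14 of 11740, none of them among the 6 lncRNAs. By edgeR, MALAT1 had a log2 fold change of 3.10 (SE 0.58, Benjamini-Hochberg adjusted p = 0.426), and the adjusted p was 0.00182 with no filter on low counts and 0.240 in DESeq2. GAS5 had -1.60 (SE 0.94) and SNHG1 -1.57 (SE 1.50), with edgeR adjusted p of 1.00 each.

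Per kb of annotated exon, the order of the 6 lncRNAs differed between the groups. In CTCs the mean level per kb was 651 ± 209 for MALAT1, 17.1 ± 13.2 for GAS5, 13.1 ± 7.97 for NORAD, 6.17 ± 3.37 for NEAT1, 4.57 ± 3.68 for SNHG1 and 0.047 ± 0.041 for KCNQ1OT1 (SD, n = 5 mice). In culture it was 162 for MALAT1, 113 for GAS5, 28.1 for SNHG1, 14.5 for NORAD, 3.84 for NEAT1 and 0.111 for KCNQ1OT1. MALAT1 stood first in all 5 mice and in culture. GAS5 and NORAD, NORAD and NEAT1, and NEAT1 and SNHG1 are neighbors in CTCs that did not differ beyond the spread over mice. Next after MALAT1 came GAS5 in mice 5542, 5545 and 5546 and NORAD in mice 5541 and 5549. Full-length libraries cover long RNAs unevenly, and the length of the short NEAT1 transcript is a small part of the exon length used. The exon lengths of GAS5 and SNHG1 join all their transcripts, and that of SNHG1 includes introns, so both may be too low per kb. These levels and their order are therefore rough.

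The ratio of nuclear to cytoplasmic lncRNAs was computed for each cell, from the summed values of MALAT1, NEAT1 and KCNQ1OT1 over those of NORAD, GAS5 and SNHG1. On the log2 scale the cultured cells had 1.74, -1.17, 1.96, 0.05, 1.84 and 1.32, with a median of 1.53. The medians of the CTCs were 5.21 in mouse 5541, 6.85 in mouse 5542, 4.08 in mouse 5545, 5.16 in mouse 5546 and 5.77 in mouse 5549. All 5 were above every cultured cell. Of 37 CTCs, 34 were above every cultured cell, and CTCs 5545-6 at -4.05 and 5546-s5 at -3.58 were below all of them. How often ratios of other sets of genes reach such a count was not computed. The mean of the mouse medians was 5.41 ± 1.01 (SD, n = 5 mice), a difference of 3.88 from the culture.

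MALAT1 weighs most in the nuclear sum. Without MALAT1 the difference was 2.29, and with equal weight for each lncRNA on the log2 scale it was 3.35. Scaling of a cell drops out of the ratio, apart from the 1 added to each sum, because both sums come from the same library. It compares RNAs, not compartments, since whole cells were lysed.

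**Figure D3:**
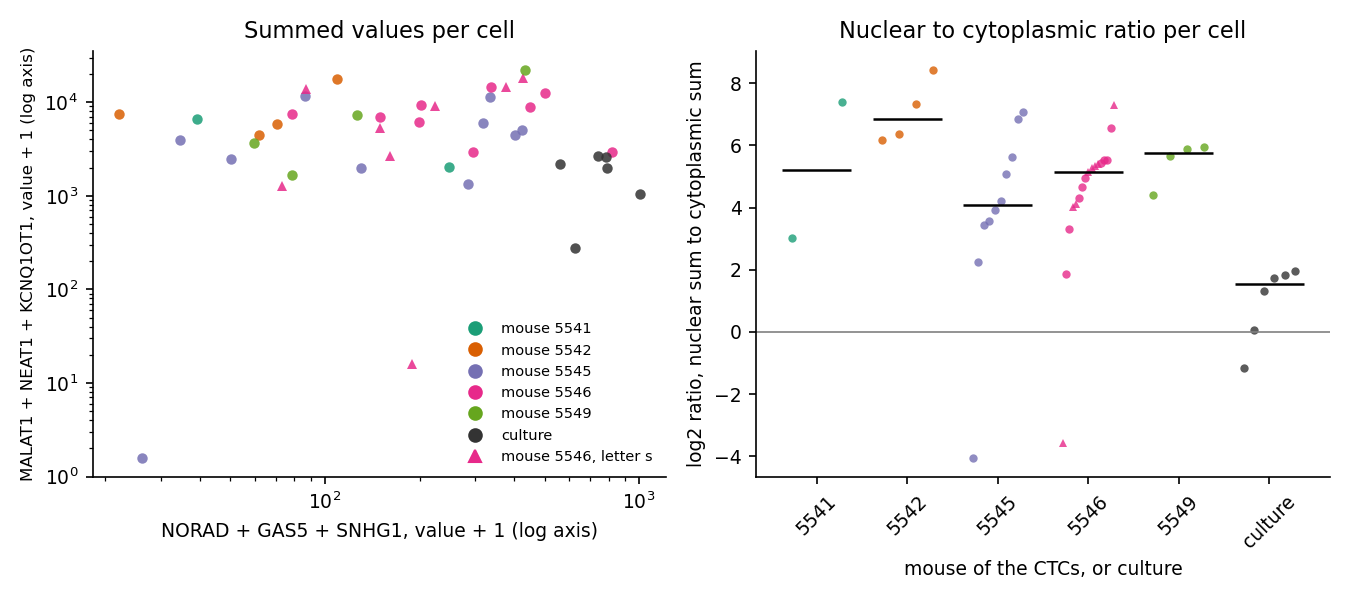
Left, the summed normalized values of MALAT1, NEAT1 and KCNQ1OT1 (vertical log axis, value + 1) against those of NORAD, GAS5 and SNHG1 (horizontal log axis, value + 1), with each point a cell. Right, the log2 ratio of the sums by mouse and in culture, with black lines at medians, where 34 of 37 CTCs sit above every cultured cell and 2 CTCs sit near -4.

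The number of genes detected and the mitochondrial share of a cell are common measures of cell and library quality, and they are set here against the lncRNAs across CTCs. The nuclear sum, whose rho with MALAT1 alone was 0.999, had a Spearman rho of 0.03 with genes detected and -0.04 with mitochondrial share (37 CTCs). NEAT1 had 0.25 and -0.09. The cytoplasmic sum had 0.33 and -0.03. These points share mice, libraries and depth, and cells are not replicates, so no p is given. Over 6138 genes with enough values, the median rho was 0.28 with genes detected and -0.19 with mitochondrial share. For genes detected, MALAT1 at 0.02 lay above 7.25% of those genes, NEAT1 at 0.25 above 43.8%, GAS5 at 0.25 above 44.8%, NORAD at 0.38 above 74.3% and SNHG1 at 0.47 above 88.5%. For mitochondrial share, GAS5 lay above 50.2%, NEAT1 above 68.6%, MALAT1 above 75.5%, NORAD above 81.4% and SNHG1 above 96.1%.

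The relations differed within the mice. For MALAT1 with genes detected, rho was 0.48 in mouse 5545 (10 CTCs), and in mouse 5546 it was -0.52 in the c libraries (9 CTCs) and 0.31 in the s libraries (8 CTCs). Pearson's r of the log2 nuclear sum with genes detected was 0.45, and without CTCs 5545-6 and 5546-s5 it was -0.10. Spearman's rho without them was -0.14. SNHG1 with genes detected kept a positive rho in mouse 5545 (0.77) and in the c libraries (0.33), with -0.30 in the s libraries, where only 2 CTCs had a read. After thinning, the rho of SNHG1 with genes detected was 0.42, and without mouse 5546 it was 0.17. The CTCs with the highest mitochondrial shares were 5546-s7, 5546-s9 and 5546-c10, at 23.9%, 22.7% and 21.5%. Their MALAT1 values of 1236, 13159 and 2811 spread over the range of the other CTCs, and 5546-c10 was also the CTC with the highest GAS5, SNHG1 and KCNQ1OT1.

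**Figure D4:**
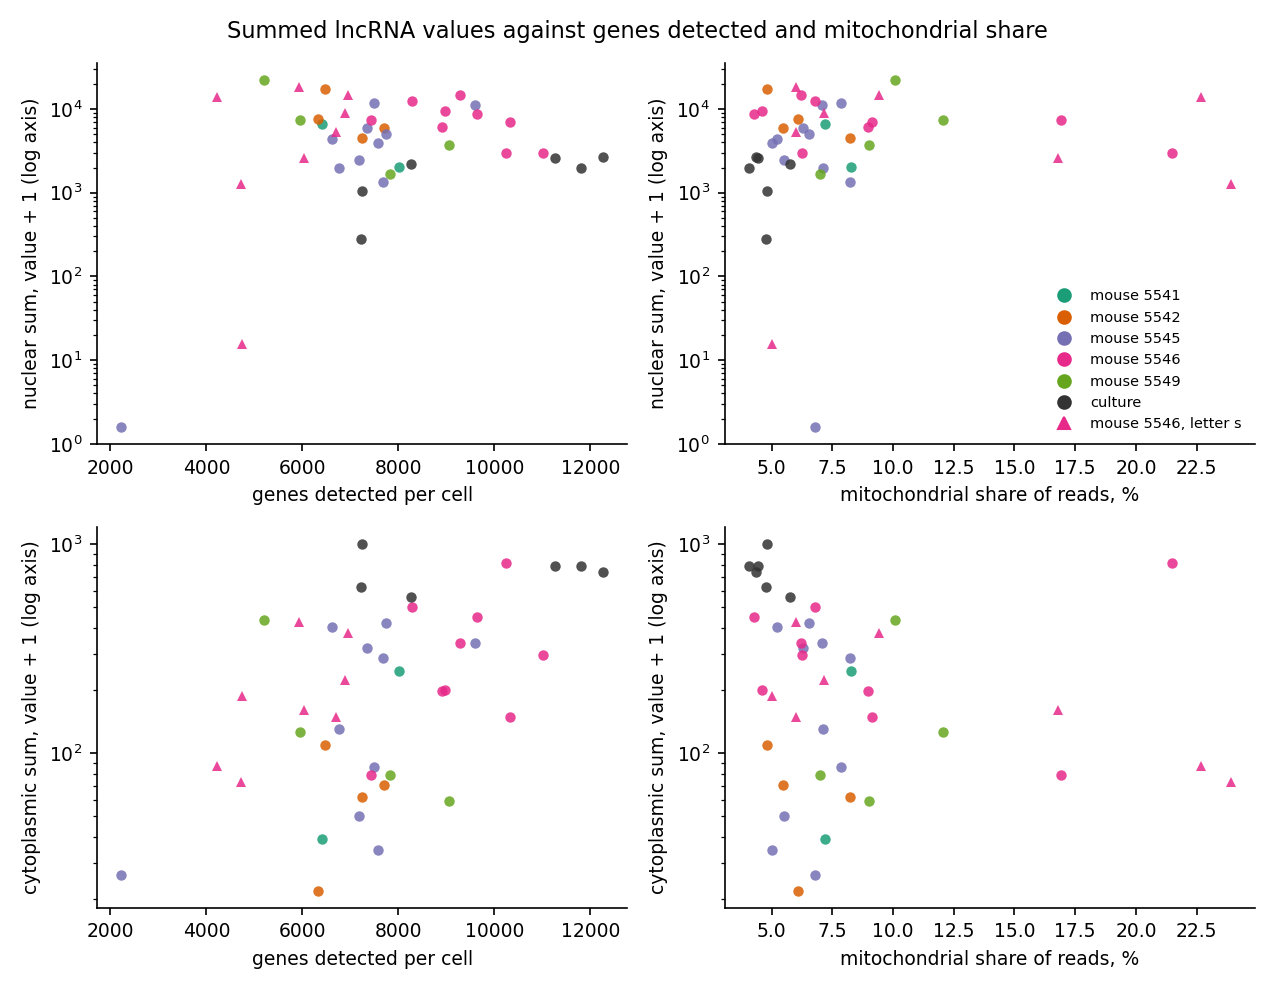
Summed nuclear lncRNAs (top, MALAT1, NEAT1 and KCNQ1OT1) and cytoplasmic lncRNAs (bottom, NORAD, GAS5 and SNHG1) on log axes of value + 1, against genes detected (left) and mitochondrial share of reads in percent (right). Each point is a cell, colored by mouse or culture, with triangles for the s libraries of mouse 5546. Spearman's rho over the 37 CTCs was 0.03 and -0.04 for the nuclear sum and 0.33 and -0.03 for the cytoplasmic sum.

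Among the lncRNAs themselves, the nuclear ones did not form a tight group. The 3 nuclear pairs had rho of 0.46 for MALAT1 and NEAT1, 0.37 for NEAT1 and KCNQ1OT1 and 0.19 for MALAT1 and KCNQ1OT1. The 3 cytoplasmic pairs had 0.46 for NORAD and GAS5, 0.16 for GAS5 and SNHG1 and 0.01 for NORAD and SNHG1. The 9 mixed pairs ran from 0.00 to 0.35. Without CTCs 5545-6 and 5546-s5, MALAT1 and NEAT1 had 0.37. Within mouse 5546, NORAD had 0.60 with MALAT1 and 0.59 with GAS5, while MALAT1 with SNHG1 had -0.78 in the c libraries.

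The genes most like each lncRNA over the 37 CTCs were taken by Spearman rho among about 6138 genes and are given with no reading of shared function. For MALAT1 they were SRSF5 (0.70), a splicing factor of nuclear speckles, BTG1 (0.68), an antiproliferative gene, and FRMD6 (0.64). The least like were NPC2 (-0.56), a lysosomal cholesterol carrier, and NIT2 (-0.51). For NEAT1 they were CHD2 (0.70), a chromatin remodeler, SMAD3 (0.66), a transducer of TGF-β signals, and DST (0.66), with TOMM22 (-0.52) and MTHFD1 (-0.50) at the other end. For KCNQ1OT1 they were JUNB (0.63), an AP-1 subunit, TMEM263 (0.56) and DMAP1 (0.54), with CDC45 (-0.56), a replication factor, and ANO6 (-0.55) opposite.

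For NORAD the most like genes were KCMF1 (0.69), EDEM2 (0.68) and UBBP4 (0.64), and the least like ARPC1A (-0.52) and FABP5 (-0.50). For GAS5 they were ZFAS1 (0.71), another snoRNA host gene, DDX42 (0.67) and KDM5A (0.67), with MT-ND6 (-0.47) and SEMA3A (-0.47) opposite. For SNHG1 they were AHCTF1 (0.73), PDCD7 (0.72) and PRC1 (0.64), with PFDN4 (-0.51) and GIPC1 (-0.51) opposite. The median rho over all genes lay between -0.02 for KCNQ1OT1 and 0.15 for GAS5. After ranks were centered within each mouse and library letter, 16 of the 18 most like genes stayed among the 20 most like of their lncRNA.

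The other snoRNA host genes set GAS5 and SNHG1 in context. All 25 on the list had a row and 18 had enough signal, of which SNHG20, SNHG16 and DANCR met the 2-fold rule as lower in CTCs, beside 25.1% of all genes, and none as higher. SNHG20 also met the 4-fold rule, with a mean of 0.641 in CTCs, where 7 of 37 had a read, and 14.5 in culture. The median log2 ratio of the 18 was -1.02, 0.19 above the median of all genes, whereas GAS5 and SNHG1 lay below that median. ZFAS1 had 139 ± 74.9 in CTCs (SD, n = 5 mice) and 136 in culture. With CPM, 2 of 17 met the 2-fold rule as lower, where 8.72% of all genes did.

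Of the other nuclear lncRNAs, 4 of 7 with a row had enough signal and none met either rule. The median log2 ratio of these 4 was -0.86, 0.35 above the median of all genes, and 0.26 above it with CPM. PVT1, a lncRNA beside MYC, had 25.8 ± 22.8 in CTCs (SD, n = 5 mice) and 44.7 in culture, LINC-PINT had 16.5 ± 25.4 and 13.1, and JPX, an activator of X inactivation, had 13.6 ± 3.92 and 32.4. Of the other cytoplasmic lncRNAs, CYTOR had 241 ± 171 and 132, and OIP5-AS1 had 21.1 ± 10.0 and 70.2, and neither met a rule. The median log2 ratio of these 2 was -0.41, 0.79 above the median of all genes, and 0.75 above it with CPM. By median, these cytoplasmic lncRNAs lay above these nuclear ones, the reverse of the order among the 6 lncRNAs. CYTOR was the third most abundant lncRNA in CTCs by mean, after MALAT1 and the snoRNA host SNHG5, while NEAT1 stood 6th, GAS5 9th, NORAD 19th, SNHG1 61st and KCNQ1OT1 213th.

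The protein partners of these RNAs are given beside the median of all genes. Of 14 paraspeckle proteins, all with enough signal, RBM14, TARDBP, EWSR1, CPSF6 and DAZAP1 met the 2-fold rule as lower, beside 25.1% of all genes, none as higher and none at 4-fold. Their median log2 ratio was -1.86, 0.66 below the median of all genes and 0.67 below it with CPM. Their summed value in all 37 CTCs lay below every cultured cell with the deposited scaling, in which the median gene was also lower in CTCs. The share of other sums of genes with such a count was not computed, so no weight is put on it. HNRNPK had 305 ± 218 in CTCs (SD, n = 5 mice) and 1168 in culture, and NONO, which binds NEAT1 directly, had 131 ± 91.8 and 456. HNRNPH3 had 110.2 ± 45.2 and 328. With CPM, 3 of the 14 met the 2-fold rule as lower, beside 8.72% of all genes.

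Of 13 nuclear speckle proteins, SRSF1, SRSF2 and PNN met the 2-fold rule as lower, beside 25.1% of all genes, and none as higher. With CPM none met it, where 8.72% of all genes were lower and 0.695% higher. Their median log2 ratio was -0.68, which turned to 0.26 with CPM and lay above the median of all genes with both. SRSF3 had 677 ± 210 in CTCs (SD, n = 5 mice) and 1194 in culture, SRSF7 had 185 ± 99.7 and 570, and SON, the core scaffold of speckles, had 215 ± 99.5 and 142. Of the 4 NORAD partners, RBMX met the 4-fold rule as lower, with 61.9 ± 17.5 in CTCs (SD, n = 5 mice) and 444 in culture. With CPM RBMX met the 2-fold rule only. Of 9 factors of nonsense-mediated decay with enough signal, none met the 4-fold rule in either direction and none the 2-fold rule with CPM. Their median log2 ratio was -0.63, above the median of all genes, and UPF1, the central helicase of that pathway, had 24.1 ± 33.9 and 14.6.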

How the data were processed

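Single-cell RNA-seq values of 37 CTCs from 5 mice and 6 cultured LM2 cells were used. The deposited values are a signal, gene counts that the authors divided by a size factor per cell. DESeq2 1.42.1 is listed in the submitters' processing notes. Per the study's methods, STAR 2.7.10a placed reads on the human genome (GRCh38, GENCODE 38) at single sites without regard to strand, and 4 CTCs were dropped for poor mapping or many mitochondrial reads. Genes with close copies are therefore undercounted, and RNAs with no poly(A) stretch are captured less well by oligo-dT.

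Dividing the values of a cell by the lowest one above 0 returned whole reads for 100% of values, within a tolerance of 0.001. These recovered reads gave depth, shares, CPM, thinning to 469614 reads and the sums per mouse. Symbols were matched for 25684 of 25739 identifiers, and exon lengths are those of GENCODE 44. Genes detected were counted over 14594 genes seen in at least 5 of the 43 cells. The rule of size used a pseudocount of 1 and required the larger mean to be at least 8. Tools were R 4.3.3, edgeR 4.0.16, limma 3.58.1, DESeq2 1.42.0, Python 3.11.15, numpy 2.4.6, pandas 2.3.3, scipy 1.17.1 and matplotlib 3.10.9. The steps were tested on simulated data.

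Mice are the replicates of the CTCs, and the culture is 1 sample. The genes, lists and tests were chosen with earlier results of these data known. Named genes are the 6 lncRNAs, list genes past the 4-fold rule or, where none passed, up to 3 of the most abundant, and for each lncRNA the 3 most and 2 least correlated of the genes seen in at least 50% of CTCs with a mean of at least 8. Genes past the 2-fold rule, ZFAS1 and SNHG5 were named after their values were seen. Alternatives changed the pseudocount, filter, average, fold, scaling, depth and test, or left out a mouse, a cultured cell or the s libraries. Leaving out CTCs 5545-6 and 5546-s5, or CTC 5546-c10, was chosen after seeing the data. List genes without a row were not analysed here, and some items are not reported here.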

Additional observations from a re-analysis of the deposited data

Results flagged for a closer look

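The 28 sets examined had 4 to 10 cells, each of 1 measure in 1 mouse or in the culture. In 10 of them, a cell had a gap to the next cell that was large for the range of its set. The rule gives about 1 in 20 by chance for values with a normal distribution. Many of these sets hold skewed single-cell values, and some cells had no read, so the count cannot be compared with that rate. No excess over chance is drawn from it. The sets are not independent, since the same cells recur.

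CTC 5549-6 was the highest of the 4 CTCs of mouse 5549 in NEAT1 (215, next 33.9), KCNQ1OT1 (1.67, from 1 read, with the others at 0), NORAD (216, next 39.0) and SNHG1 (132, next 15.4), and it was the highest of all CTCs in MALAT1. It had 588141 reads, and its summed values of the erythroid markers, the nuclear speckle proteins and the other snoRNA host genes were also the highest of all CTCs. In mouse 5545, different CTCs were far above the rest for different lncRNAs. CTC 5545-1 had a NEAT1 value of 966 (next 227), CTC 5545-11 a KCNQ1OT1 value of 44.1 (next 9.24), CTC 5545-12 a NORAD value of 189.9 (next 59.5) and CTC 5545-7 a SNHG1 value of 154 (next 26.9). CTC 5545-6 had a log2 ratio of nuclear to cytoplasmic lncRNAs of -4.05, where the next lowest of its mouse had 2.24. Among the cultured cells, LM-3 had a GAS5 value of 833, above the next value of 578.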

How the results depend on the processing

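Over 21 alternatives, the log2 ratio of CTCs to culture was above 0 in all for MALAT1 (1.48 to 3.10) and below 0 in all for GAS5 (-3.71 to -1.60) and SNHG1 (-4.63 to -1.57). NEAT1 was above 0 in 20 (-0.39 to 1.73), KCNQ1OT1 below 0 in 20 (-2.02 to 0.01) and NORAD below 0 in 15 (-1.02 to 1.12). The number of genes past the rule of size, 493, was 2322 at 2-fold, 123 with a pseudocount of 10, 1359 with medians over cells, 149 with CPM, and 144 with CPM without mitochondrial genes, where MALAT1 met the 4-fold rule as higher. It ran from 406 to 765 with 1 mouse or 1 cultured cell left out, and was 765 without mouse 5545. Of the genes past the 4-fold rule, 1.22% were higher in CTCs, against 8.05% with CPM. Tests on summed reads called 0 genes in edgeR (252 at an unadjusted p under 0.05), 14 in edgeR without its filter (9 higher, 5 lower) and 14 in DESeq2, all higher. The rho of the nuclear sum with genes detected, 0.03, was 0.45 as Pearson's r, 0.48 within mouse 5545, -0.52 and 0.31 within the c and s libraries, and -0.24 to 0.14 with 1 mouse left out. Its rho with mitochondrial share, -0.04, was 0.18 with CPM, 0.21 with CPM without mitochondrial genes, 0.16 when thinned, -0.50 within the c libraries and -0.29 with protein-coding mitochondrial genes. The cytoplasmic sum went from 0.33 to 0.60 with genes detected within the s libraries. Its rho with mitochondrial share, -0.03, was 0.16 with CPM, 0.24 with CPM without mitochondrial genes, -0.41 within mouse 5546, -0.64 within the s libraries, and -0.15 to 0.22 with 1 mouse left out, the highest without mouse 5546. With genes detected, NORAD turned to -0.20 within the c libraries and SNHG1 to -0.30 within the s libraries. The difference in the nuclear to cytoplasmic ratio was 2.29 without MALAT1 and 3.35 to 4.22 in the other alternatives. The causes were not tested. No paired analysis was possible because the cell numbers in the labels count picked cells and pair none of them. Thinning to 469614 reads left KCNQ1OT1 with a read in 12 CTCs in place of 20, and SNHG1 in 21 in place of 22.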
